A study of Mus musculus with 9 samples.

Results

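Fibroblasts without MyD88 were compared with wild-type fibroblasts under matched treatments, on 6 of the 9 arrays of the series. Mouse embryonic fibroblasts (MEFs) are mesenchymal cells grown out of minced embryos, a mixture of cell states rather than a clone. The groups were WT cells (genotype STING+/+), MyD88KO cells (MyD88-/-) and SKO cells (STING-/-), each as a mock control, after transfection of double-stranded DNA (titled ISD) or after lipopolysaccharide (LPS), for 6 h. Each genotype and treatment was measured on 1 Affymetrix MoGene 2.0 array, and the SKO arrays are given here as side values only. The titles and genotype labels read MyD88KO, whereas the growth protocol and the design text spell the strain MyD99KO. The labels name no strain background, embryo, passage or sex, and no allele beyond the genotype, and nothing in them tells if a genotype's 3 arrays are separate cultures. The p-values therefore measure the spread between these arrays across treatments. Genotype, embryo, cell preparation and the sex of the cells cannot be told apart in this design.

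MyD88 is the adaptor through which most Toll-like receptors and the interleukin 1 receptor family recruit IRAK kinases and switch on NF-kB and MAP kinases after a ligand is bound. Fibroblasts use this route when LPS engages Tlr4. The comparison asked which genes stood apart between the genotypes whatever the treatment, and what those genes do.

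A gene was represented by the probe set naming only that gene that had the highest mean signal over the 9 arrays, and only autosomal genes entered, which gave 21065 genes. Signals are on a log2 scale, so that 1 unit is a 2-fold difference. Of these genes, 13125 reached 4.44, the median of all deposited values, on at least 3 of the 6 arrays and were tested, and 7940 were not tested. A gene was called when the limma adjusted p for genotype was under 0.05 and MyD88KO was at least 2-fold away from WT, in 1 direction, under mock, ISD and LPS alike. This rule called 248 genes, 1.89% of those tested. Of them 140 (1.07%) were higher and 108 (0.823%) were lower in MyD88KO. Without the 2-fold condition, an adjusted p under 0.05 was reached by 2973 genes (22.7%), of which 1382 (10.5%) were higher and 1591 (12.1%) lower. Such genes are written below as having passed the test. The median difference of all genes tested was -0.01.

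The differences were also counted within each treatment. Between single arrays, MyD88KO was at least 2-fold above WT for 253 genes under mock (1.87% of those bright enough on 1 of the arrays), 283 under ISD (2.12%) and 294 under LPS (2.21%). It was at least 2-fold below WT for 205 (1.52%), 216 (1.62%) and 244 genes (1.83%). The share of these that was 2-fold apart the same way under all 3 treatments was 55.3%, 49.5% and 47.6% for the higher genes and 52.7%, 50% and 44.3% for the lower genes. The calling rule itself asks for 2-fold differences in 1 direction, so the agreement of the called genes across treatments is fixed by it. All 140 higher and all 108 lower genes that were 2-fold apart under all 3 treatments also had an adjusted p under 0.05. The p condition thus removed no gene. The called genes whose MyD88KO and WT values still overlapped were Hoxc12 and Atp8b1, named after their values were seen. Across the 13125 genes the mock and LPS differences had a Pearson r of 0.79, those of mock and ISD 0.75 and those of ISD and LPS 0.71. These pairs share no array, but they share genotype and probe sets, and genes are not independent replicates.

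**Figure D1:**
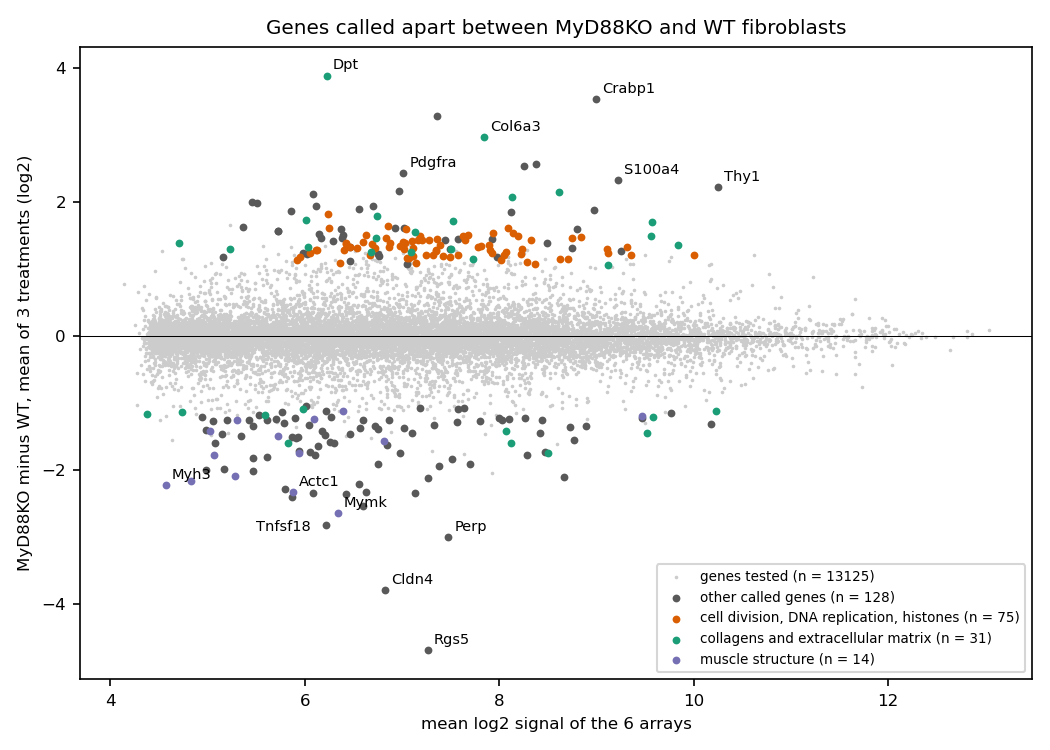
Mean MyD88KO minus WT difference (vertical, log2) against the mean log2 signal of the 6 arrays (horizontal), 1 point per gene tested, with called genes in colour by function. The 75 called genes of cell division, DNA replication and histones lie between 1.07 and 1.82, while Dpt at 3.88 and Rgs5 at -4.69 mark the extremes. The 2-fold condition of the call sets the lower edge of that range.

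The called genes were sorted by known function by hand, after their identity was known. The higher genes held 58 genes of mitosis and cell division, 13 of DNA replication and repair, 4 histone genes and 20 genes of collagens and extracellular matrix. The lower genes held 18 of cell adhesion and axon guidance, 14 of muscle structure, 11 of matrix and 8 of epithelial junctions and surface. In the same groups, 3 adhesion and guidance genes and 4 epithelial genes were called higher. Only called genes were sorted, so these counts have no background share. The 58 mitosis genes had a median difference of 1.32, within a range from 1.07 to 1.64. The higher matrix genes reached from 1.06 to 3.88, further up than the mitosis genes. The 2-fold condition of the call sets the lower end of both ranges.

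The proliferation genes were read on a set of promoters as well as on their signals. Many genes of late cell cycle phases carry a CHR element (cell cycle genes homology region, TTTGAA) and CCAAT boxes, the latter bound by NF-Y, just upstream of the start site. The 150 bases before the first listed start of 4 such genes follow because they display both elements. They are RefSeq sequences of GRCm38.p6, written 5′ to 3′ on the strand of the gene. Capitals mark CHR and CCAAT matches only, read on both strands, so that TTCAAA and ATTGG are the reverse forms, and no marked match overlaps another.

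Cdk1 (chr10:69352913-69353062, minus strand): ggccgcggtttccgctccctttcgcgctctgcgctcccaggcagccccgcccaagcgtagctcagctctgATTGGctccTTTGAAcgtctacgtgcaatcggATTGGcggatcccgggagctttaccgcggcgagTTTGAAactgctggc
Ube2c (chr2:164769779-164769928, plus strand): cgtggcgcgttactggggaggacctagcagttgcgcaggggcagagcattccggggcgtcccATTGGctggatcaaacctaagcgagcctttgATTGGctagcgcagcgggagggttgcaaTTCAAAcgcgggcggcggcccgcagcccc
Mki67 (chr7:135716380-135716529, minus strand): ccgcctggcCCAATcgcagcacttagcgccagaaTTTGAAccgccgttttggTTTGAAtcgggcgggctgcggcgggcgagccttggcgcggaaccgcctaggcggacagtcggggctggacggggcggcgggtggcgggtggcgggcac
Top2a (chr11:99024190-99024339, minus strand): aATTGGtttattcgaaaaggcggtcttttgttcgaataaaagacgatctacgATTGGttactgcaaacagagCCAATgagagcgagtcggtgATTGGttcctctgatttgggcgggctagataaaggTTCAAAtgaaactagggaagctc

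Of the 13125 genes tested, 10274 had a promoter in the RefSeq table. A CHR match lay in the 150 bases of 5.01% of these, and a CCAAT box in 27.3%. Among the 58 called mitosis genes, 51 had a promoter, of which 19 (37.3%) held a CHR match and 33 (64.7%) a CCAAT box. The motif TTTNNCGC, a form of the E2F site, was in 4.42% of all these promoters and in 4 of the 51 (7.84%). That set was grouped by hand after the calls were known. In the cell cycle and DNA replication list, 41 members passed as higher and 33 of them had a promoter, of which 8 (24.2%) held a CHR match, 23 (69.7%) a CCAAT box and 5 (15.2%) the E2F form. Of the 13 called replication and repair genes, 11 had a promoter, and 2 (18.2%) held a CHR match, 8 (72.7%) a CCAAT box and 1 (9.09%) the E2F form. The 4 genes shown were picked because they held matches, and a match is a run of letters, not a tested binding site.

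All 4 of these genes were higher in MyD88KO. The signal of Mki67, the proliferation antigen Ki-67, was 8.09, 8.16 and 8.06 in WT under mock, ISD and LPS and 9.64, 9.52 and 9.56 in MyD88KO. The mean difference was 1.47 ± 0.06 (standard error, n = 3 arrays per genotype, limma adjusted p = 0.000153). The MyD88KO arrays thus lay above all WT arrays by more than 1 log2 unit, while the SKO arrays read 7.99, 7.88 and 7.94. Cdk1, the kinase that drives entry into mitosis, was 7.53, 7.44 and 7.38 in WT against 8.77, 8.60 and 8.57 in MyD88KO (difference 1.20 ± 0.06, limma adjusted p = 0.000192). Top2a, the topoisomerase that untangles sister chromatids, differed by 1.43. Ube2c, which feeds ubiquitin to the anaphase-promoting complex, differed by 1.23.

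Genes of each step of division were among the 58. Kinetochore and spindle genes included Cenpe, a kinetochore motor, which was 7.30, 7.56 and 7.27 in WT and 8.68, 9.34 and 8.71 in MyD88KO. Its difference was 1.53 ± 0.09 (limma adjusted p = 0.000313), and Kif11, the spindle motor that separates the poles, and Birc5 (survivin), a subunit of the chromosomal passenger complex, each differed by 1.51. Cytokinesis genes included Racgap1 at 1.61 and Cep55 at 1.45, and checkpoint kinases included Bub1 at 1.43 and Ttk at 1.38. A pair of regulators of mitotic transcription was also called, Mybl2 at 1.49 and Foxm1 at 1.21. Of the replication genes, Prim1, the DNA primase subunit, differed by 1.47, Rrm1, the large subunit of ribonucleotide reductase, by 1.20 and Mcm3, part of the replicative helicase, by 1.10. The histone genes were H1f5 at 1.82, H2bc12 at 1.61, H2ac20 at 1.60 and H4f16 at 1.5. Histone genes have near-identical copies, so their single values are uncertain.

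A list of 44 cell cycle and DNA replication genes, all of them tested, overlaps the genes above and covers members short of 2-fold. In MyD88KO 41 members (93.2%) passed the test as higher, against 10.5% of all genes, none passed as lower, and 21 were called. The median of the list was 1.12, and within treatments it was 1.12 under mock, 1.02 under ISD and 1.20 under LPS. The 3 members that did not pass were the D-type cyclins, which act early in G1: Ccnd1 at 0.21, Ccnd2 at 0.07 and Ccnd3 at -0.06.

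Genes that hold the cell cycle or promote death were on the lower side. In a list of 27 p53 target and senescence genes, 18 (66.7%) passed as lower, against 12.1% of all genes, and 1 passed as higher. Without the mock arrays 12 passed as lower. The list median was -0.45. Cdkn1c, the CDK inhibitor p57, was 8.43, 8.34 and 8.30 in WT and 6.55, 6.35 and 6.34 in MyD88KO, and SKO read 7.85, 7.84 and 7.76. The WT and MyD88KO arrays did not overlap (difference -1.94 ± 0.06, limma adjusted p = 0.000117). Perp, a p53 target and desmosome protein, fell by 3.0 on the log2 scale, from 8.68, 9.30 and 8.95 to 5.88, 6.29 and 5.75. Pmaip1 (Noxa), a pro-death BCL2 family member, was 8.93, 9.49 and 9.11 in WT and 6.80, 8.30 and 7.10 in MyD88KO (difference -1.78 ± 0.18, limma adjusted p = 0.00175), and Trp53inp1 differed by -1.25.

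Other inhibitors and p53 targets passed without being called. They included Cdkn2b at -1.04, Cdkn2a at -0.71, Cdkn1a (p21) at -0.56 and Mdm2, the ligase that degrades p53, at -0.72. The member that passed as higher was Cdkn1b (p27) at 0.61. Dapk1, a calmodulin-regulated death kinase outside the list, was 7.58, 7.99 and 7.78 in WT and 5.15, 5.55 and 5.71 in MyD88KO, a difference of -2.32 ± 0.10 (limma adjusted p = 0.000171).

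Mesenchymal surface, matrix and pericyte genes held the largest difference in each direction. Dpt (dermatopontin), a small matrix protein that binds collagen fibrils and decorin, was 4.14, 4.48 and 4.25 in WT, close to the median signal of all probe sets, and 8.15, 8.16 and 8.19 in MyD88KO. SKO read 5.07, 5.18 and 5.17. The difference of Dpt between MyD88KO and WT was 3.88 ± 0.10 (14.7-fold, limma adjusted p = 8.52e-05). A low array signal cannot be told from background, so this fold understates the change if the WT signal is background.

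Rgs5, a regulator of G protein signalling and a marker of pericytes, was the gene furthest apart. Its signal was 9.62, 9.52 and 9.68 in WT, 4.29, 5.31 and 5.17 in MyD88KO and 9.99, 9.92 and 10.02 in SKO. The WT and MyD88KO groups were separated by more than 4 log2 units, with a difference of -4.69 ± 0.20 (25.8-fold, limma adjusted p = 0.000174). Pdgfrb, also a marker of pericytes, went the other way, from 9.67, 9.48 and 9.52 in WT to 10.57, 10.12 and 10.41 in MyD88KO. Other pericyte and fibroblast genes went both ways. Of 21 tested members of that list, 10 (47.6%) passed as higher and 5 (23.8%) as lower, against 10.5% and 12.1% of all genes. The list median was 0.20. Pdgfra, the receptor for PDGF-A that marks many fibroblasts, was 5.80, 5.70 and 5.89 in WT and 8.34, 7.80 and 8.55 in MyD88KO. That difference was 2.43 ± 0.12 (limma adjusted p = 0.00021), and SKO read 5.69, 5.72 and 5.75. Thy1 (CD90), a fibroblast surface glycoprotein, was 9.20, 9.07 and 9.12 in WT against 11.27, 11.44 and 11.36 in MyD88KO. S100a4, a calcium-binding protein also known as FSP1, was higher by 2.32, and Cd34, a sialomucin, passed as lower at -0.76.

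**Figure D2:**
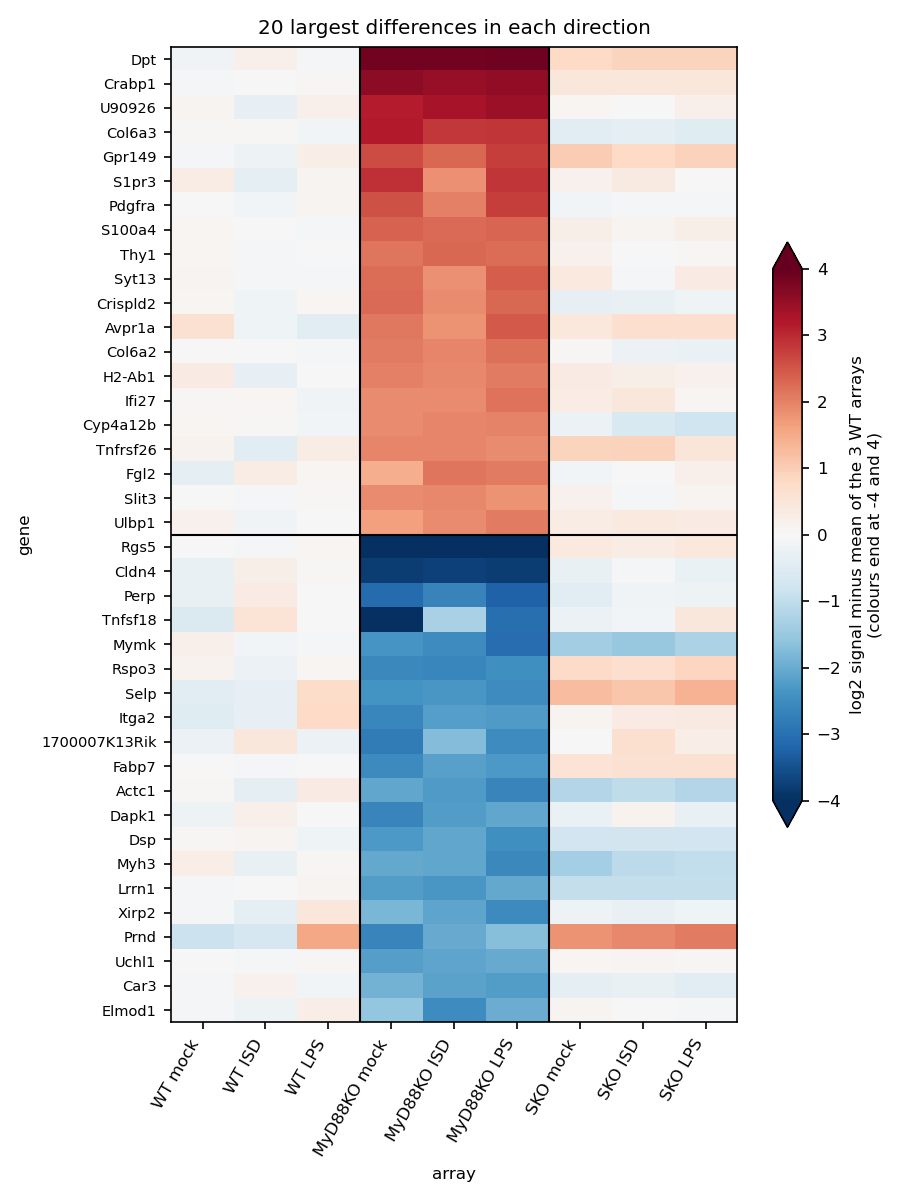
Log2 signal minus the mean of the 3 WT arrays (colour) for the 20 called genes with the largest mean difference in each direction (rows) on the 9 arrays (columns). Within a row the 3 MyD88KO arrays have similar colours, from Dpt (mean difference 3.88) to Rgs5 (-4.69), except for Tnfsf18, and the SKO columns are shown for reference.

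The 3 classic chains of type VI collagen, which forms beaded microfibrils around cells, were called higher, whereas the further chain Col6a6 had a difference of 0.01 and did not pass. Col6a3 was 6.41, 6.41 and 6.26 in WT and 9.54, 9.19 and 9.23 in MyD88KO, and SKO read 5.93, 5.98 and 5.88 (MyD88KO minus WT 2.96 ± 0.08). Col6a2 differed by 2.07 and Col6a1 by 1.71. Col10a1, the collagen of hypertrophic cartilage, was the remaining collagen called higher, at 1.33. The fibrillar chain Col11a1 was called lower, from 8.79, 8.72 and 8.84 in WT to 7.45, 7.22 and 7.41 in MyD88KO. Over the list of 40 collagens, 13 passed as higher and 3 as lower, against 10.5% and 12.1% of all genes (32.5% and 7.5% of the list). The list median was 0.07, and its members ranged from -1.42 to 2.96. The main chains of type I collagen, Col1a1 at 0.27 and Col1a2 at 0.58, passed as higher by less than 2-fold.

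Among other matrix genes, 26 of 71 listed glycoproteins and proteoglycans (36.6%) passed as higher and 13 (18.3%) as lower. The shares over all genes were 10.5% and 12.1%, and the list median was 0.04. Called members on the higher side included Ccn5, a matricellular protein, at 1.78, Tnn (tenascin N) at 1.72 and Acan, the cartilage proteoglycan aggrecan, at 1.29. On the lower side were Ogn (osteoglycin), from 9.25, 9.65 and 9.23 in WT to 7.43, 7.79 and 7.66 in MyD88KO, and Efemp1 (fibulin 3) at -1.59. Matrix-degrading enzymes also split: Ctsk, the collagen-cleaving cathepsin K, was higher by 1.54, and Mmp2 (gelatinase A) was lower, at -1.12. Itga11, a collagen-binding integrin chain, was called higher at 1.60. Itga2, a chain of another collagen-binding integrin, was 7.13, 7.27 and 8.41 in WT and 4.99, 5.41 and 5.34 in MyD88KO (difference -2.36 ± 0.23, limma adjusted p = 0.00144).

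Most skeletal muscle genes tested were lower in MyD88KO. Of 35 measured members of the list, 27 were tested, 19 of these (70.4%) passed as lower and none as higher, against 12.1% and 10.5% of all genes. Without the mock or without the LPS arrays 10 members passed as lower, and without the ISD arrays 14. The median was -0.60, with -0.53 under mock, -0.50 under ISD and -0.67 under LPS. The called members were Mymk, Actc1, Myh3, Casq2 and Tnni1. The filter removed 8 dim members, so these counts do not cover the whole list. A gene bright enough on the 3 WT arrays alone could enter, as Myh3 did, which favours lower genes. With no signal filter 35 members were tested and 15 passed as lower. Of all 21065 genes, 2417 then passed in either direction. When only genes with a mean of at least 6 were kept, 6 members were tested and 5 passed as lower.

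Mymk (myomaker), a membrane protein needed for myoblast fusion, was 7.85, 7.55 and 7.58 in WT, 5.29, 5.16 and 4.60 in MyD88KO and 6.26, 6.14 and 6.40 in SKO. The 3 genotypes did not overlap, and MyD88KO minus WT was -2.64 ± 0.13 (limma adjusted p = 0.000206). Actc1, the cardiac actin also made in embryonic muscle, was 7.11, 6.65 and 7.38 in WT and 4.98, 4.77 and 4.40 in MyD88KO (difference -2.33 ± 0.21, limma adjusted p = 0.00121). In SKO Actc1 was 5.88, 6.03 and 5.88, below the WT arrays and above the MyD88KO arrays. Myh3, the embryonic myosin heavy chain, was 5.95, 5.38 and 5.72 in WT and 3.65, 3.62 and 3.10 in MyD88KO. The myogenic transcription factors passed with smaller differences, Myog at -0.62 and Myod1 at -0.60. Acta1, the skeletal muscle actin, read 9.91, 9.60 and 9.81 in WT and 9.97, 9.47 and 9.95 in MyD88KO. Its MyD88KO signal was below WT under ISD only. Muscle genes called outside the list included Xirp2 at -2.16, a protein of intercalated discs and muscle attachments, the sarcomeric alpha-actinin Actn2 at -1.77, and Myom1 (myomesin 1), which links thick filaments at the M-band, at -1.5.

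Promoters of 3 called muscle genes are given because each holds a match to the CArG box, read by serum response factor, or to the MEF2 box, both classic elements of muscle promoters. The 150 bases are from the same RefSeq table and build, with the CArG box in capitals in Actc1 and Myom1 and the MEF2 box in capitals in Xirp2.

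Actc1 (chr2:114052876-114053025, minus strand): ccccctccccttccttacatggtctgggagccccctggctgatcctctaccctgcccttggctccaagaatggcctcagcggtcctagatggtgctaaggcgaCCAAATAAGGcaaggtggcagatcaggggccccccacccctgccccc
Myom1 (chr17:71019407-71019556, plus strand): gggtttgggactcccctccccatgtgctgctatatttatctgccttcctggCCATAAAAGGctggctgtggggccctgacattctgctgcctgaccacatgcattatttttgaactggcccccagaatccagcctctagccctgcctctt
Xirp2 (chr2:67445852-67446001, plus strand): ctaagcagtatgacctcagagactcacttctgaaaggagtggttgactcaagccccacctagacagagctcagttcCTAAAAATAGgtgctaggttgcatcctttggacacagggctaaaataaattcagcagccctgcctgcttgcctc

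Of the 14 called muscle genes, 11 had a promoter in the table. A CArG box was in 2 of them (18.2%) against 0.769% of the promoters of all genes tested. The MEF2 box was in 1 (9.09%) against 0.302%, and CAGCTG, an E-box form bound by myogenic factors, in 2 (18.2%) against 7.77%. Both strands were searched. These are counts of a few promoters, from genes grouped by hand as muscle genes after the calls were known. They describe muscle genes and do not test the genotype.

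Epithelial junction and surface genes were called in both directions. Of those grouped by hand after the calls were known, 8 were lower and 4 higher, counts that have no background share. Cldn4, a tight junction claudin, was 8.43, 8.96 and 8.77 in WT, 4.92, 4.97 and 4.91 in MyD88KO and 8.44, 8.64 and 8.44 in SKO (MyD88KO minus WT -3.78 ± 0.11, limma adjusted p = 9.01e-05). The separation was complete, and the MyD88KO signals were near the median of all probe sets. Dsp (desmoplakin), which anchors desmosomes to intermediate filaments, was 6.98, 7.05 and 6.77 in WT and 4.62, 4.85 and 4.49 in MyD88KO. Of 19 tested epithelial genes, 7 (36.8%) passed as lower and 5 (26.3%) as higher, against 12.1% and 10.5% of all genes. Krt18, at -1.07, was among the 7. The 5 higher genes included genes made by mesothelium, Msln (mesothelin) at 0.95, Upk3b at 0.86 and Wt1 at 0.46, and the uroplakin Upk1b at 1.05. Gjb2 (connexin 26), a gap junction protein, was called higher at 1.39, as were Lmo7 at 1.61, Emp2 at 1.27 and Sprr2k at 1.22.

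Genes that steer axons and migrating cells passed more often as lower than as higher, and most did not pass. In the list of ephrin, Eph receptor, semaphorin and related guidance genes, 20 of 53 (37.7%) passed as lower, against 12.1% of all genes, 5 as higher and 28 not at all, with a median of -0.15. Epha4, an Eph receptor, was 9.65, 9.30 and 9.73 in WT and 8.31, 7.84 and 8.51 in MyD88KO, a difference of -1.34 ± 0.06 (limma adjusted p = 0.000192). Sema3d at -1.40, the netrin receptor Unc5c at -1.29 and the Slit receptor Robo1 at -1.22 were also called lower. The ligand Slit3 was the member called higher, 8.03, 8.0 and 8.09 in WT against 9.92, 9.96 and 9.85 in MyD88KO. Of 18 neural and glial genes, 9 passed as lower and 1 as higher, with Fabp7, a fatty acid binding protein of radial glia, at -2.34 and the intermediate filament Nes (nestin) at -1.22.

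Hox genes, whose activity records position along the body and limbs, passed in both directions. Of 93 Hox and other positional transcription factors, 21 (22.6%) passed as higher and 27 (29.0%) as lower, and the median was -0.07. The shares over all genes were 10.5% and 12.1%. HoxC genes were on the higher side, with Hoxc12 called at 1.23, and Hoxc8 at 0.99, Hoxc9 at 1.03, Hoxc10 at 0.63 and Hoxc11 at 0.60, whereas Hoxc5 passed as lower at -0.37. HoxA genes that passed were lower, led by Hoxa5, which was 6.97, 6.90 and 7.0 in WT and 5.49, 4.83 and 5.62 in MyD88KO, and including Hoxa2 at -1.01 and Hoxa13 at -0.57. Among HoxD genes, Hoxd10 to Hoxd13 passed as lower, from -0.60 for Hoxd10 to -0.96 for Hoxd11, and Hoxd8 passed as higher at 0.55. The other called members were lower: Tbx20, a heart and lateral mesoderm factor, at -1.75, Dlx5 at -1.71 and Msx2 at -1.25, both factors of limb, jaw and bone. Hoxc12 was higher in MyD88KO within every treatment, but it was 7.29 in WT under ISD against 6.73 in MyD88KO under LPS, so the genotypes overlapped across treatments.

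Retinoic acid is a patterning signal made by retinaldehyde dehydrogenases. Crabp1, which binds it in the cytosol, was 7.17, 7.25 and 7.28 in WT, 10.82, 10.70 and 10.76 in MyD88KO and 7.68, 7.68 and 7.67 in SKO. It had the smallest adjusted p of the genes named here (difference 3.53 ± 0.06, limma adjusted p = 3.19e-05). Its relative Crabp2 was lower at -1.37, and Aldh1a2, a synthesis enzyme, fell by 1.83 on the log2 scale, from 8.49, 8.28 and 8.52 to 6.58, 6.49 and 6.74. Of 16 tested genes of the retinoid pathway, 3 (18.8%) passed as higher and 4 (25.0%) as lower, against 10.5% and 12.1% of all genes.

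Receptors and secreted signals were called in both directions. S1pr3, a receptor for sphingosine 1-phosphate, was 7.30, 6.59 and 7.08 in WT and 9.90, 8.83 and 9.85 in MyD88KO, a difference of 2.54 ± 0.10 (limma adjusted p = 0.00017). Tnfrsf11a (RANK), a TNF family receptor, was higher by 1.46, and Ptn (pleiotrophin), a heparin-binding growth factor, by 1.31. On the lower side, Rspo3, a secreted enhancer of Wnt signals, was 8.01, 7.65 and 7.96 in WT and 5.30, 5.27 and 5.43 in MyD88KO. Tnfsf18, the ligand of GITR, was 7.06, 8.19 and 7.64 in WT and 3.52, 6.34 and 4.60 in MyD88KO, and its 3 matched differences spread by 1.69. Bmp7, a bone morphogenetic protein, was lower, at -1.77. Prnd (doppel), a relative of the prion protein, was 7.46, 7.66 and 9.87 in WT and 5.68, 6.31 and 6.63 in MyD88KO. Its difference of -2.12 ± 0.34 (limma adjusted p = 0.00876) was -2.29 without the mock arrays, where it missed the threshold (limma adjusted p = 0.0664). Averaged over its 2 probe sets, Prnd differed by -0.99, under 2-fold.

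Imprinted genes, expressed from 1 parental allele and many of them tied to fetal growth, were more often lower. Of 31 tested, 13 (41.9%) passed as lower and 1 (3.23%), Dcn (decorin) at 0.20, as higher, against 12.1% and 10.5% of all genes. The list median was -0.24. Besides Cdkn1c, Asb4 was called, at -1.27. Peg10 at -1.09, Peg3 at -1.05, Plagl1 at -1.03 and Igf2, the fetal growth factor, at -0.55 passed without being called. Igf2 was 11.39, 11.44 and 11.46 in WT and 10.86, 10.87 and 10.90 in MyD88KO.

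Genes of cholesterol synthesis and uptake, under the control of the sterol-sensing factor SREBP2, stood slightly higher. Of 16 tested, 12 (75.0%) passed as higher and none as lower, against 10.5% and 12.1% of all genes. The list median was 0.64, and no member was called. Without the mock or without the LPS arrays 8 passed. Lss (lanosterol synthase) was 7.18, 7.09 and 7.13 in WT and 8.42, 8.05 and 8.44 in MyD88KO, a difference of 1.17 ± 0.08 (limma adjusted p = 0.000562) that came to just under 2-fold under ISD. The sterol carrier Stard4 differed by 1.10 and Cyp51 by 1.01.

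**Figure D3:**
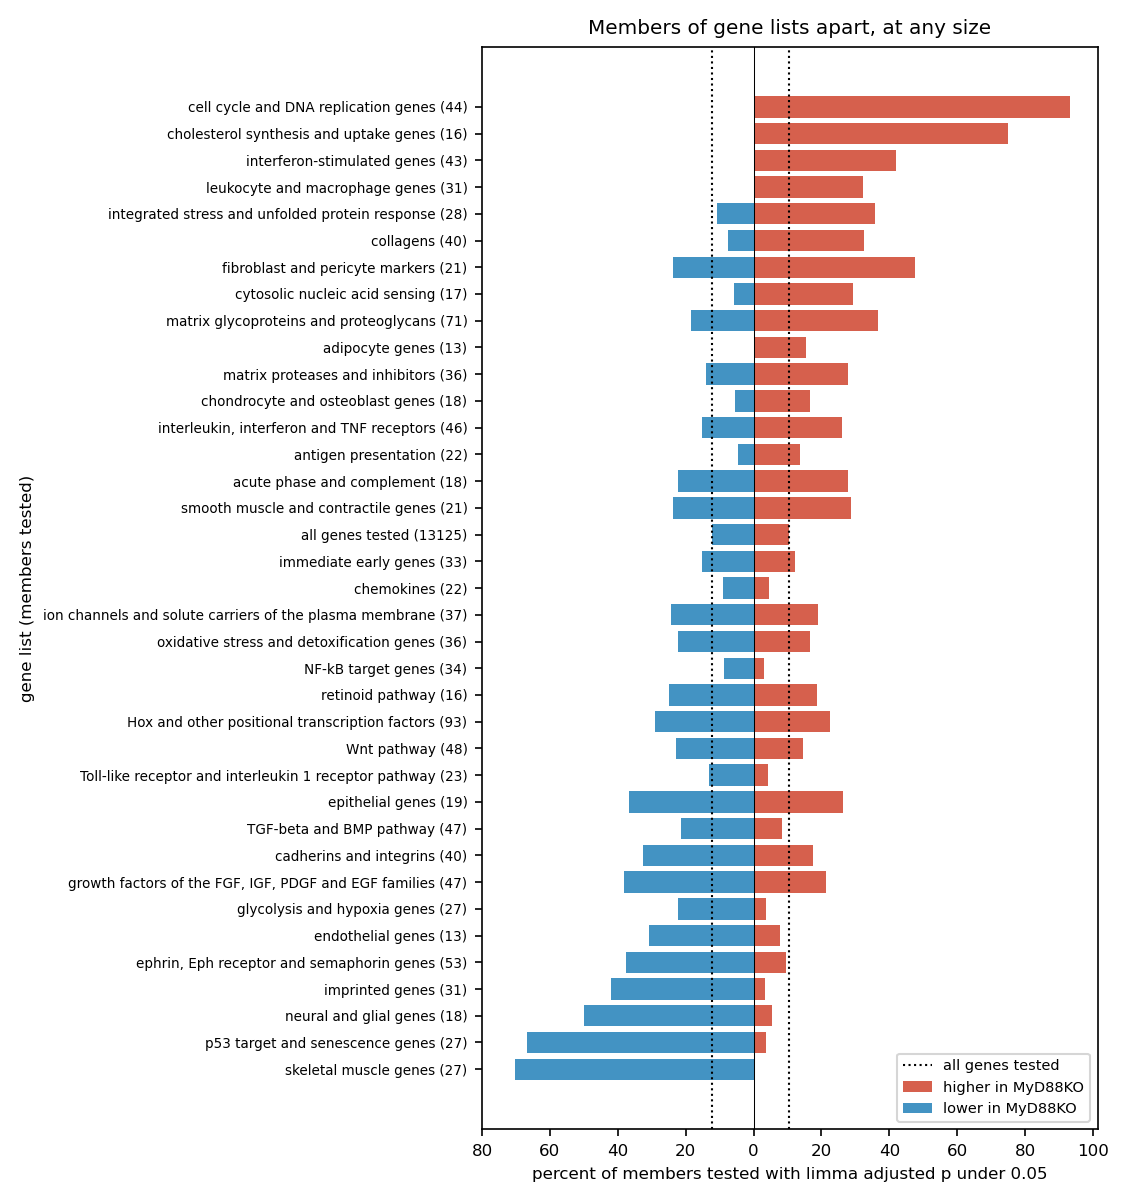
Share of the tested members of each list (horizontal, percent, members in brackets) that passed the test at any size as higher (right, red) or lower (left, blue) in MyD88KO. The dotted lines mark 10.5% and 12.1%, the shares over all genes tested, and the cell cycle list at 93.2% higher and the skeletal muscle list at 70.4% lower reach furthest.

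The targeted gene was read first. Myd88 itself read 7.52, 8.95 and 7.73 in WT, 6.99, 8.21 and 7.17 in MyD88KO and 7.74, 8.26 and 8.05 in SKO, and both WT and MyD88KO were highest under ISD. MyD88KO was lower under each treatment, by a mean of -0.61 ± 0.07 (limma adjusted p = 0.00257). With all 9 arrays in the fit this p was 0.0576. Where the probes lie relative to the deleted segment is not stated in the labels or the deposited values, so this signal checks neither the deletion nor the label. Tlr4, the LPS receptor, was 5.41, 5.14 and 5.32 in WT and 5.41, 5.04 and 5.40 in MyD88KO, a mean difference of -0.0027 whose sign turned under other settings (0.017 after quantile normalisation). Of 23 tested genes of the Toll-like receptor and interleukin 1 receptor pathway, 1 passed as higher, Il1r1 at 0.63, and 3 as lower, Myd88, the kinase Irak2 at -0.73 and the LPS co-receptor Ly96 (MD-2) at -0.55. The shares over all genes were 10.5% and 12.1%, so these counts are near or below the background. Il1r1 missed the threshold with all 9 arrays (limma adjusted p = 0.0655) and without the LPS arrays (limma adjusted p = 0.051). None of the 23 was called, the median was 0.07, and the mean differences ran from -0.84 to 0.63.

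The genes next to Myd88 on chromosome 9 were read in the order of the RefSeq gene table. Of the 20 nearest measured genes, 10 on each side, 14 were tested, 3 passed, against 22.7% of all genes, and none was called. The 3 were Ctdspl, a phosphatase gene, at 1.07, the phospholipase gene Plcd1 at -0.57 and the kinase gene Oxsr1 at 0.23. Oxsr1 missed the threshold with no signal filter (limma adjusted p = 0.0639), with no intensity trend (limma adjusted p = 0.0784) and without the mock, ISD or LPS arrays (limma adjusted p = 0.0976, 0.108 and 0.175). Called genes made up from 0.902% (chromosome 17) to 3.54% (chromosome 3) of the tested genes of a chromosome, and 2.51% on chromosome 9.

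Inflammatory lists had medians that varied with the treatment, a variation that was not tested. NF-kB target genes had a median difference of 0.03 under mock, 0.20 under ISD and -0.60 under LPS, and chemokines 0.02, 0.29 and -0.94. Each of these within-treatment values rests on 1 array per genotype. In the fit over the 3 treatments, 1 of 34 NF-kB targets (2.94%) passed as higher and 3 (8.82%) as lower, below the 10.5% and 12.1% of all genes. No member of either list was called, against 1.89% of all genes. A call asks for 2-fold under all 3 treatments, and a difference under 1 treatment alone adds to the spread in the fit. These counts therefore do not answer whether the lists differed under LPS alone.

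Interferon-stimulated genes leaned higher in MyD88KO. Of 43 tested, 18 passed as higher (41.9%) and none as lower, against 10.5% and 12.1% of all genes. The list median was 0.42, with 0.17 under mock, 0.56 under ISD and 0.26 under LPS. With all 9 arrays in the fit 2 members passed, and without the mock, the ISD or the LPS arrays the count was 9, 9 and 7. Ifi27, an interferon-inducible membrane protein, was the member called, at 4.58, 4.61 and 4.37 in WT and 6.41, 6.42 and 6.68 in MyD88KO (difference 1.99 ± 0.13). Cgas, the enzyme that senses DNA in the cytosol, was 4.19, 5.16 and 4.30 in WT and 5.47, 7.22 and 5.85 in MyD88KO, a difference of 1.63 ± 0.16 (limma adjusted p = 0.00149). In SKO Cgas read 4.67, 4.55 and 4.89. Sting1 was 8.54, 8.57 and 8.54 in WT and 8.73, 9.32 and 8.87 in MyD88KO, and its difference of 0.42 (limma adjusted p = 0.044) did not pass with all 9 arrays (limma adjusted p = 0.156). H2-Ab1, a class II histocompatibility chain, was 4.77, 4.12 and 4.48 in WT and 6.47, 6.38 and 6.53 in MyD88KO, a difference of 2.0. The complement regulator Cd55 was lower, at -1.14.

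**Figure D4:**
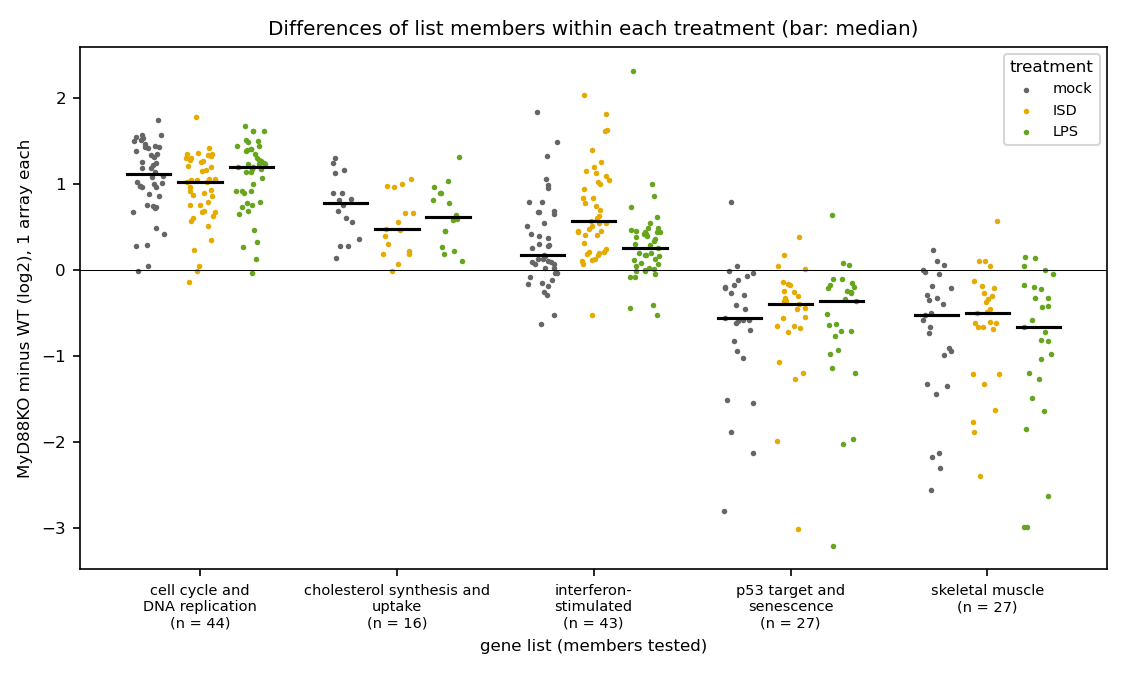
MyD88KO minus WT difference (vertical, log2) of each tested member of 5 lists, drawn within mock, ISD and LPS from 1 array per genotype, with a bar at the median. The cell cycle medians (1.12, 1.02 and 1.20) and the skeletal muscle medians (-0.53, -0.50 and -0.67) keep their side under each treatment, while the interferon-stimulated list is furthest from 0 under ISD at 0.56.

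The fibroblast label was set against defining markers. Vim and Col1a1 were above 11 on every array. Epcam was between 2.97 and 3.30, and Krt14, Cdh1 and Pecam1 were at or below 5.08, on all 9 arrays. Other defining markers were brighter. The endothelial receptor Kdr was 7.40 to 7.60 in WT and 6.18 to 6.52 in MyD88KO. The macrophage genes Cd68, between 7.35 and 7.86 on the 9 arrays, and Lyz2, between 6.49 and 8.16, were also well above the median signal. Markers of other cells moved with the genotype, and their part in the results above was not tested. The log2 of the summed signal of 35 skeletal muscle genes was 11.58 to 11.78 in WT and 11.11 to 11.32 in MyD88KO, that of 31 epithelial genes 11.15 to 11.24 and 10.63 to 10.74, and that of 23 neural and glial genes 12.09 to 12.15 and 11.58 to 11.79. In SKO the muscle sum was 11.31 to 11.33, below WT and overlapping MyD88KO. The epithelial sum in SKO was 10.89 to 10.95 and the neural sum 12.01 to 12.03, both between WT and MyD88KO. For 42 leukocyte and macrophage genes it was 10.83 to 11.02 in WT, 11.18 to 11.34 in MyD88KO and 11.32 to 11.42 in SKO. Of 31 leukocyte genes tested, 10 passed as higher, led by the macrophage genes Msr1 at 0.95 and Lyz2 at 0.91, and none as lower or as called. Without the LPS arrays 3 passed, and without the mock arrays 6. Macrophage genes did not all go this way. Cd68 was slightly lower in MyD88KO than in WT under each treatment. Adgre1 was higher under mock and ISD and lower under LPS, while Csf1r and Tyrobp were higher under each treatment. The sums for 25 fibroblast and pericyte genes were 14.04 to 14.11 in WT, 14.39 to 14.48 in MyD88KO and 14.02 to 14.06 in SKO. In cultures measured in bulk, fewer cells of a type and less RNA per cell cannot be told apart.

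Sex-linked genes, which stayed outside the test, also separated the cultures. Xist, the RNA that coats the inactive X chromosome, was 7.01, 7.27 and 7.14 in WT and 8.71, 8.92 and 9.02 in MyD88KO. The Y-linked Uty was 6.33, 6.40 and 6.37 in WT against 3.07, 3.01 and 3.07 in MyD88KO, and Eif2s3y was 7.60, 7.62 and 7.07 against 3.35, 4.56 and 3.20. SKO was near WT for all of these, with Uty at 6.10, 6.16 and 6.02. WT and SKO were above 4.44, the median of all values, for Xist, Uty and Eif2s3y alike, whereas Uty in MyD88KO was below it. Sex-linked transcripts therefore differed along with the genotype label, and the share of either in an autosomal difference cannot be told apart.

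**Figure D5:**
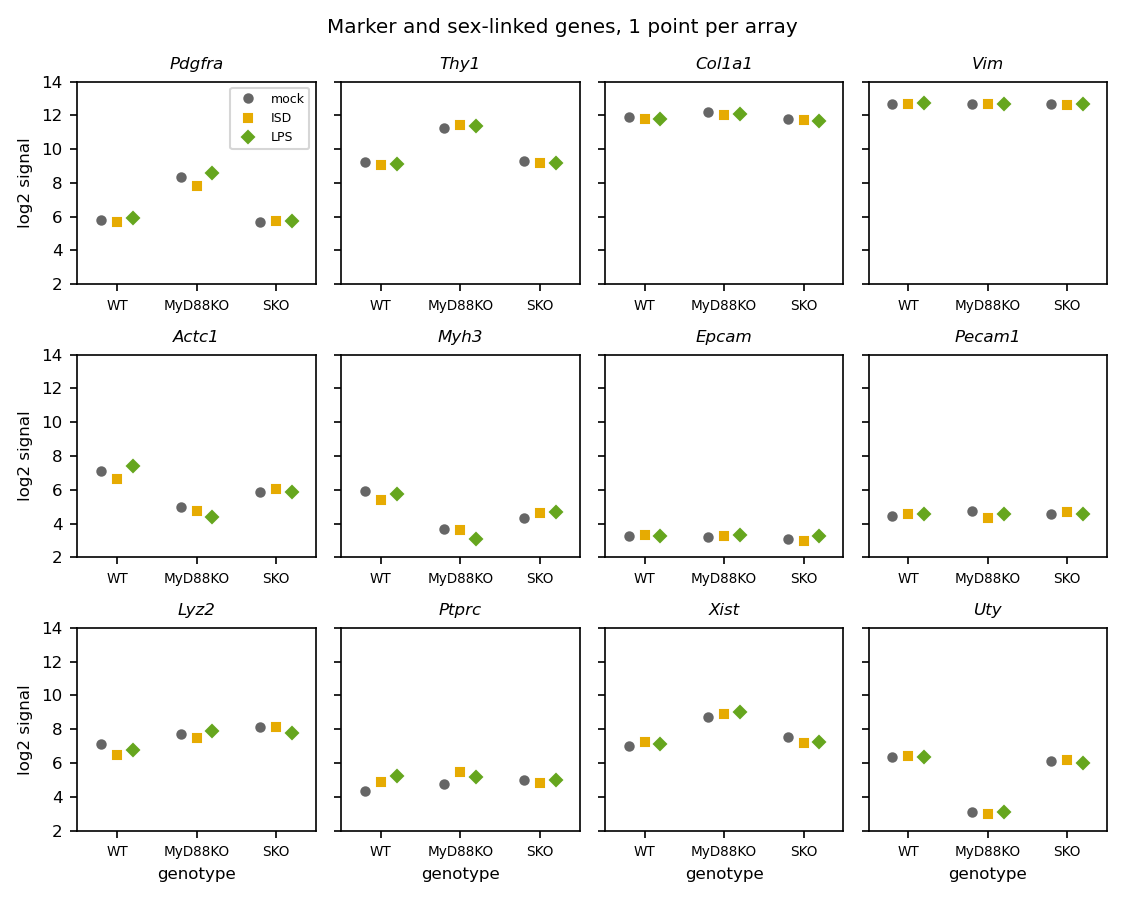
Log2 signal (vertical) of marker and sex-linked genes on each of the 9 arrays, by genotype (horizontal) and treatment (symbol), 1 point per array. Pdgfra and Thy1 are above WT on all 3 MyD88KO arrays, Actc1 and Myh3 are below, Vim is level, Epcam stays under 3.30, and Xist and Uty part MyD88KO from both other genotypes.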

How the data were processed

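Each deposited value is a log2 signal of 1 probe set on 1 array, computed by the authors with Affymetrix Expression Console 1.3.1.187 per the submitters' processing notes. The labels do not name the background correction or normalisation. Array medians were 4.42 to 4.46, and the values were used without rescaling. Of 41345 probe sets, 23521 had 1 gene symbol, 1814 several and 16010 none. RefSeq (GRCm38.p6) gave names, chromosomes and promoters only, and 23328 of the probe sets with 1 symbol matched it. Tests used limma 3.58.1 in R 4.3.3 (lmFit with genotype and treatment, eBayes with an intensity trend, Benjamini-Hochberg over 13125 genes) on the 6 arrays, with 2 residual degrees of freedom, and were tested on simulated data. The number of arrays limits the precision. SKO was left out of the fit, which holds only the genotypes compared.

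The comparison, the 39 gene lists and the motifs were chosen with earlier results of these data known. Named genes are the 20 largest called differences in each direction, up to 4 called members of each list, Myd88, Sting1, Tlr4, Il1r1, neighbours of Myd88 that passed, and sex-linked genes. Every other gene named, and the grouping by function, was chosen after the values were seen. Alternatives covered the signal filter, scaling, eBayes prior, arrays in the fit, probe set rule, fold threshold and leaving out a treatment.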

Additional observations from a re-analysis of the deposited data

Results flagged for a closer look

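For Casp4, an inflammatory caspase, the MyD88KO minus WT difference took opposite signs by treatment, 0.03 under mock, 1.09 under ISD and -1.20 under LPS, a span of 2.29. The signals were 3.84, 6.35 and 5.79 in WT and 3.87, 7.44 and 4.59 in MyD88KO. Each rests on 1 array, and the difference between treatments was not tested.

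Probe sets outside the gene table held the same kind of separation. Of 1027 bright enough probe sets with several symbols, 15 were at least 2-fold apart the same way under all 3 treatments (7 higher, 8 lower). Of 5263 with no symbol, 24 were (13 higher, 11 lower). Their genes were not analysed here.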

How the results depend on the processing

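No paired analysis was possible because the replicate number is 1 on every array and gives no pairing of its own. The genotypes were matched by treatment instead, as a term of every fit. The called genes numbered 744 (415 higher, 329 lower) at 1.5-fold and 2973 with no fold threshold. With a mean signal of at least 6, 68 lower genes were called, 5 skeletal muscle genes passed as lower and 5 leukocyte genes as higher, out of fewer genes tested. With all 9 arrays 2 interferon-stimulated genes passed. Leaving out the arrays of 1 treatment gave 280 to 343 called genes (153 to 198 higher, 122 to 145 lower). The rule then asked for 2-fold under the remaining treatments only, which is looser, so these counts are not like for like. It gave 38 to 41 cell cycle, 10 to 14 skeletal muscle, 12 to 15 p53 target, 8 to 13 cholesterol, 7 to 9 interferon-stimulated, 3 to 8 leukocyte and 11 to 13 imprinted genes past the test in the direction reported. Genes past the test at any size fell to 1192 without the mock and 1301 without the LPS arrays. The difference of Tlr4 turned to 0.017 after quantile normalisation and ranged from -0.046 to 0.042 when the arrays of 1 treatment were left out, never past the test, and the cause was not tested. Of the 90 genes named by rule, 84 kept direction and side of the threshold under every alternative that tested them. A gene removed by a signal filter, such as Tlr4 at a mean of at least 6, was not checked under that filter. Signal over background is unknown, which limits all dim genes.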
